A study of Homo sapiens with 6 samples.

Results

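The human genes named *ZNF* and a number encode zinc finger proteins, and the ones described here are those expressed in NCI-H660 cells, an established line of neuroendocrine prostate cancer (NEPC). Members were chosen by symbol and by level: of 500 genes in the table with a symbol of *ZNF*, digits and at most 1 letter, 220 had a mean of at least 5 FPKM (fragments per kilobase of transcript, corrected for the mapped total of each library) over all 6 libraries. Another 202 had a mean between 1 and 5 FPKM, and 78 were below 1 FPKM. The table lists 17177 genes in all.

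The study asked what pyrvinium pamoate (PP), a drug it used against the RNA-binding protein ELAVL3, does to these cells. NCI-H660 cells labelled wild type were given PP or PBS, the control, and RNA was taken on day 3, with 3 libraries for each treatment. The concentration of PP on these cells was not found in the sources used here, and the study calls its samples independent without saying whether they were separate cultures, so p-values measure the spread between libraries, which may be technical. All 6 libraries come from 1 cell line.

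A C2H2 zinc finger is a short loop held by a zinc ion, and strings of such fingers recognise DNA sequences. Most *ZNF* genes arose by repeated duplication and lie in clusters, above all on chromosome 19. Many of the proteins carry a KRAB domain at the amino end, which binds the co-repressor TRIM28 (KAP1). TRIM28 in turn brings the histone methyltransferase SETDB1 and heterochromatin proteins to the bound site, and the best known targets are transposable elements. Others carry a SCAN domain, which pairs the proteins with one another, and some *ZNF* symbols belong to proteins of the ribosome, the spindle or the cytoskeleton.

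Most expressed *ZNF* genes were higher in the cells treated with PP, by small amounts. At an adjusted p under 0.05 (limma, Benjamini-Hochberg over the 11726 genes with a mean of at least 1 FPKM), 144 of the 220 were higher with PP, or 65.5%, against 38.1% of all genes tested and 40.6% of genes with a mean of at least 5 FPKM. Lower with PP were 16, or 7.27%, against 34.4% of all genes tested and 34.8% of those at 5 FPKM or more, and 60 did not pass the test. The median log2 fold change of the members on the log2(FPKM + 1) scale was 0.26, their median linear fold was 1.22, and the median log2 fold change over all genes tested was 0.02. The members ran from -1.08 to 1.999 with quartiles of 0.05 and 0.46. These counts describe members chosen by their level, and no test of the members as a list was made.

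**Figure D1:**
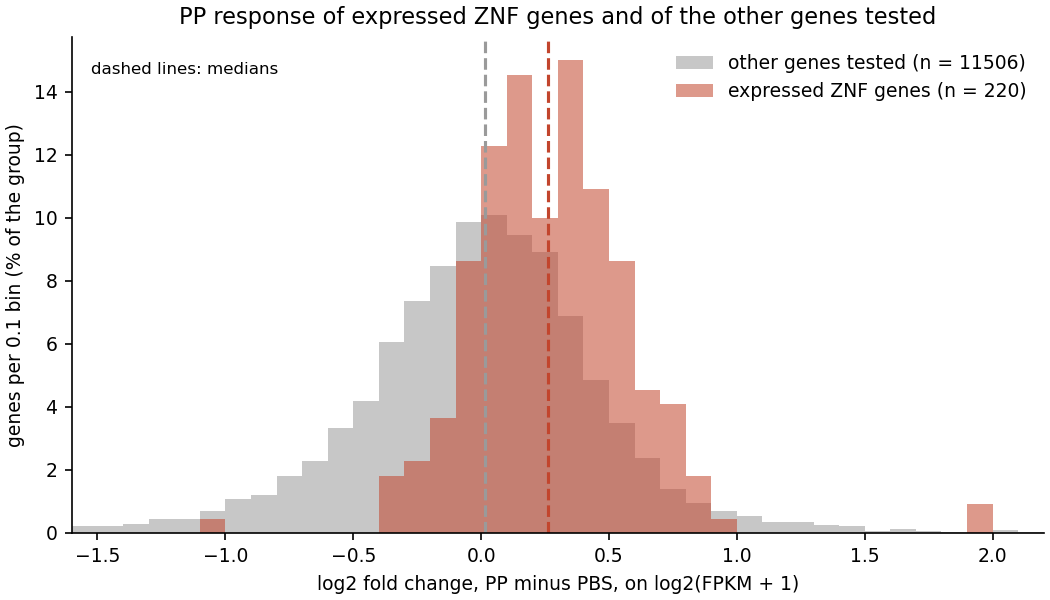
Share of genes in each bin of 0.1 of the log2 fold change between PP and PBS on the log2(FPKM + 1) scale, for the 220 expressed *ZNF* genes (red) and the 11506 other genes tested (grey), with dashed lines at the medians. The red distribution lies to the right of the grey one, and *ZNF77* and *ZNF554* stand apart near 2.

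The same difference was seen in every library. The FPKM of the 220 members summed to 2579, 2578 and 2566 in the 3 PBS libraries and to 3144, 3162 and 3203 in the 3 PP libraries. The groups did not overlap, and the members took 0.804% to 0.809% of all FPKM with PBS and 1.02% to 1.05% with PP. The median member had 8.60 ± 0.0249 FPKM with PBS and 10.5 ± 0.0760 FPKM with PP (SD, n = 3 each). In each PP library 176 to 184 members lay above their own PBS mean, and in each PBS library 104 to 112 did. The same count over all genes tested was not made, and each PBS library is part of the mean it was set against. Taken gene by gene, all 3 PP libraries lay above all 3 PBS libraries in 148 members, against 39.5% of all genes tested, and below them in 16, against 35.5%. The other 56 overlapped.

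Large changes were rare among the members. The stricter threshold in the methods asks for P under 0.001, read here as unadjusted, and for a log2 fold change beyond 1 in either direction. Past this cutoff, *ZNF77* and *ZNF554* were higher, where 2.24% of all genes tested passed, and *ZNF511* was lower, where 2.93% passed. A log2 fold change above 0.5 was found in 45 of the members that were higher, and one below -0.5 in 1 of those that were lower. The share of all genes tested past 0.5 was not counted, so these numbers cannot be set against it. The rule on level also let in genes through 1 treatment: 14 members had a mean under 5 FPKM with PBS and 2 had one under 5 FPKM with PP. Of the 204 at or above 5 FPKM in both treatments, 130 were higher and 15 were lower.

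*ZNF77* (ENSG00000175691), which encodes a KRAB protein with 13 fingers by the patterns searched here, had the highest log2 fold change. Its FPKM was 10.2, 10.2 and 11.5 in the PBS libraries and 46.0, 49.4 and 41.3 in the PP libraries. Every PP library was far above every PBS library, with a log2 fold change of 1.999 (standard error 0.07, limma adjusted p = 3.07e-09). The gene had 616 to 741 counts in each PBS library and 2793 to 3080 in each PP library. *ZNF554* (ENSG00000172006), a KRAB gene with 7 fingers, had 5.69, 5.45 and 5.95 FPKM with PBS and 26.2, 25.4 and 24.2 FPKM with PP. This gave a log2 fold change of 1.97 (standard error 0.05, limma adjusted p = 4.38e-10), so both genes changed by similar amounts from different starting levels. Neither overlaps another annotated gene.

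*ZNF511* (ENSG00000198546) went the other way. It had 18.2, 19.2 and 17.9 FPKM with PBS and 7.72, 8.55 and 8.22 FPKM with PP. Its counts were 606 to 611 per PBS library and 257 to 292 per PP library. The PP libraries were all below the PBS libraries, with a log2 fold change of -1.08 (standard error 0.05, adjusted p = 3.20e-08 from limma). With the trend with GC content and length removed from each library, it was -0.92 and no longer past the cutoff. The gene lies on chromosome 10 of GRCh37 from 135122418 to 135126666. *TUBGCP2* overlaps it on the opposite strand and the read-through gene *ZNF511-PRAP1* on the same strand, so reads of these genes could be counted together.

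The 250 bases before the RefSeq start of these 3 genes are shown because they are the only members past the cutoff. Capitals mark matches, on either strand, to the letters searched. These were CCAAT (bound by NF-Y), CCGGAAG (the core of sites for ETS factors), GGGCGG (bound by SP1 and KLF factors), TGCGCA (a half-site for NRF1), TGACGTCA (the cyclic AMP response element), TGATGCAA (the joint element of C/EBP and ATF factors), CACGTG (the E box of MYC and its relatives), TATAAA (the core promoter box bound by TBP), and, for the factor ZNF143, ACTACAA. The sequences read 5′ to 3′ on the strand of the gene and come from RefSeq on GRCh38.p14.
*ZNF77*, chr19:2944972-2945221, minus strand: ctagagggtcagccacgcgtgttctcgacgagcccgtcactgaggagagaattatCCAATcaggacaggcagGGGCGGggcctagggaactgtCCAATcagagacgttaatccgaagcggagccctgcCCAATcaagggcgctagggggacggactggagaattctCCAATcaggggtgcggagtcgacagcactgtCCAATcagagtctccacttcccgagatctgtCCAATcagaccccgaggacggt
*ZNF554*, chr19:2819618-2819867, plus strand: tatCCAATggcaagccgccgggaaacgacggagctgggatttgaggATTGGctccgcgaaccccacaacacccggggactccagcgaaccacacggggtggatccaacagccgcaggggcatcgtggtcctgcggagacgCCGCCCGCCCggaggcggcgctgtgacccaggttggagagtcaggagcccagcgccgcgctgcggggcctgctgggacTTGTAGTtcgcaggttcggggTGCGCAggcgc
*ZNF511*, chr10:133308664-133308913, plus strand: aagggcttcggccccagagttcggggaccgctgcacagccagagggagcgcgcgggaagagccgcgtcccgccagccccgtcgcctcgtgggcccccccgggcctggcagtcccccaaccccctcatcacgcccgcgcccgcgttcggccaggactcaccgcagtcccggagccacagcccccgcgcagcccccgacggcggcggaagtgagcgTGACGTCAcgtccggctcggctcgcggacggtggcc
The window of *ZNF77* holds 6 CCAAT boxes, all in the same orientation and spread from 195 to 22 bases before the start. That is the highest number among the 186 members with a RefSeq promoter (the next highest is 5, in 2 members), and 14 of the 9557 tested genes with a promoter, or 0.146%, have as many in their 300 bases. *ZNF554* has 2 CCAAT boxes, 1 in each orientation, with 2 overlapping GGGCGG matches on the other strand, 1 NRF1 half-site and 1 ACTACAA. *ZNF511* has 1 TGACGTCA, 36 bases before the start. These are matches of letters and not shown to be bound sites.

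*ZNF77* and *ZNF554* are neighbours. *ZNF554* lies on chromosome 19 of GRCh37 from 2819866 to 2836733, and *ZNF77* from 2933216 to 2944969, with *ZNF555*, *ZNF556* and *ZNF57* between them. All 5 had every PP library above every PBS library. *ZNF555*, which missed the level of 5 FPKM, had 1.99, 2.02 and 1.81 FPKM with PBS and 7.20, 7.41 and 7.50 FPKM with PP, at a log2 fold change of 1.51 (standard error 0.06, limma adjusted p = 6.70e-09). *ZNF57*, also a KRAB gene, had 6.04, 4.87 and 4.61 FPKM with PBS and 9.13, 8.71 and 9.67 FPKM with PP, a log2 fold change of 0.73. *ZNF556* was nearly silent, at 0.0196 to 0.0584 FPKM with PBS and 0.357 to 0.480 FPKM with PP, and was below the filter. Further out, *THOP1*, *SGTA* and *DIRAS1* on the side of *ZNF554* were higher too, with log2 fold changes of 0.87, 0.75 and 0.76, while *SLC39A3* among them did not pass the test (0.08). On the side of *ZNF77*, *TLE2* and *TLE5*, which encode members of the Groucho family, were lower, both at -0.37, and *GNA11* was higher at 0.19. Whether the genes of this stretch share a control was not tested.

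**Figure D2:**
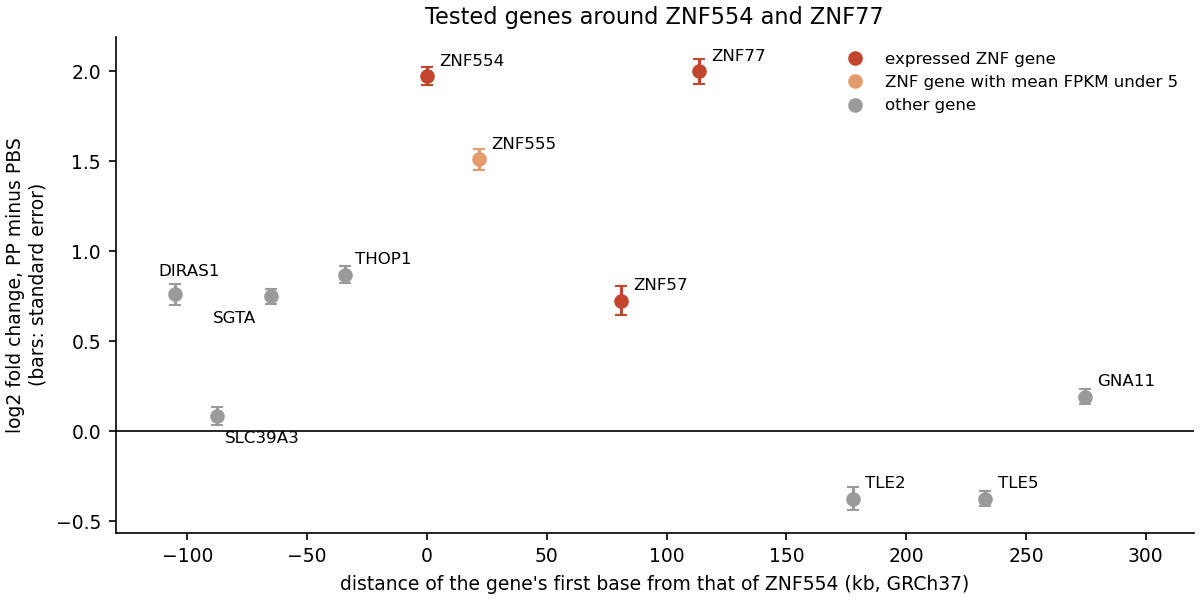
Log2 fold change between PP and PBS, with its standard error, of each tested gene within 200 kb of the stretch from *ZNF554* to *ZNF77*, against the distance in kb of its first base from that of *ZNF554* on GRCh37. *ZNF554*, *ZNF555*, *ZNF57* and *ZNF77* all lie above 0.7, and *TLE2* and *TLE5* beyond them lie below 0.

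The next highest members were less than 1 log2 unit up. *ZNF213*, which has a SCAN domain, had 7.58, 7.92 and 8.01 FPKM with PBS and 15.3, 15.8 and 16.5 FPKM with PP, a log2 fold change of 0.93 (standard error 0.05, adjusted p = 5.78e-08 from limma). *ZNF777*, a KRAB gene, had 5.79, 6.52 and 5.47 FPKM with PBS and 11.2, 11.8 and 12.2 FPKM with PP, a log2 fold change of 0.88. *ZNF572* had 6.52, 7.03 and 6.21 FPKM with PBS and 12.8, 11.9 and 13.1 FPKM with PP, a log2 fold change of 0.85. In these 3 genes the PP level was close to 2 times the PBS level, with linear folds of 2.03, 1.98 and 1.92. *ZNF330*, *ZNF550*, *ZNF593*, *ZNF251*, *ZNF569*, *ZNF354A* and *ZNF316* followed, with log2 fold changes from 0.82 to 0.74. *ZNF593* overlaps *ZNF593OS*, *ZNF213* overlaps *ZNF213-AS1*, *ZNF550* overlaps *ZNF549* and *ZNF569* overlaps *ZNF570*, all on the opposite strand. Whether the counting used strand was not given in the sources used here. *ZNF354A* overlaps another annotated protein-coding gene on the same strand.

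Among the members that were lower, all but *ZNF511* moved little. *ZNF704* had 11.6, 11.8 and 11.95 FPKM with PBS and 8.76, 8.45 and 9.56 FPKM with PP, a log2 fold change of -0.37 (standard error 0.05, adjusted p = 1.17e-04 from limma). *ZNF428* had 25.6, 28.0 and 28.3 FPKM with PBS and 22.0, 21.5 and 20.1 FPKM with PP, a log2 fold change of -0.35. *ZNF789*, the lowest KRAB gene, had 7.89, 7.69 and 8.47 FPKM with PBS and 6.59, 6.12 and 5.96 FPKM with PP, at -0.32. In each the groups were apart but near each other. *ZNF513*, *ZNF580*, *ZNF551*, *ZNF443*, *ZNF629*, *ZNF468*, *ZNF512* and *ZNF358* lay between -0.29 and -0.18. Of these, *ZNF468* reached the level of 5 FPKM only through PBS, since its PP mean was 4.73 FPKM. The call of *ZNF551* rests on 1 library, since without PP replicate 2 its log2 fold change was -0.18 with an adjusted p of 0.0562 (limma). With GC content and length corrected, the calls of *ZNF580* (-0.01) and *ZNF629* (-0.06) were lost, and *ZNF358* was at 0.0043.

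The most abundant members changed by less than 0.5 log2 units. *ZNF664* had the highest level, with 84.9, 86.3 and 85.8 FPKM with PBS and 97.0, 98.5 and 101 FPKM with PP, a log2 fold change of 0.20 (standard error 0.03, adjusted p = 2.05e-04 from limma). *ZNF503*, a co-repressor known from the developing nervous system, had 45.4, 45.6 and 45.9 FPKM with PBS and 53.8, 56.8 and 53.7 FPKM with PP, at 0.26. *ZNF623* had 32.1, 31.95 and 30.99 FPKM with PBS and 45.8, 43.2 and 44.8 FPKM with PP, at 0.48. *ZNF302* was at 0.34, and *ZNF76*, the close relative of ZNF143, did not pass the test, at 0.02, but was called higher with GC content and length corrected, at 0.12. *ZNF146* and *ZNF24* were called higher at 0.15 and 0.10, but with GC content and length corrected they were at -0.02 and -0.07, so no direction can be given for either. The call of *ZNF24* was also lost without any 1 of the 6 libraries, at 0.07 to 0.11. By level, 72 of 114 members between 5 and 10 FPKM and 53 of 76 between 10 and 20 FPKM were higher. Above 20 FPKM, 19 of 30 were higher. These are 63.2%, 69.7% and 63.3%, against 39.5%, 43.2% and 39.4% of all genes in the same bands. Lower were 8, 3 and 5 members (7.02%, 3.95% and 16.7%), against 31.1%, 30.8% and 40.2% of all genes. The last band had an upper limit that no member reached. The members' medians were 0.27, 0.27 and 0.23, and the differences between bands were not tested. Spearman's rho between log2 fold change and mean FPKM over the 220 members was 0.08. At the threshold of the rule, the members just inside were *ZNF681* at a mean of 5.02 FPKM, *ZNF462* at 5.05 and *ZNF850* at 5.05, and the *ZNF* genes just outside were *ZNF264* at 4.93, *ZNF135* at 4.93 and *ZNF212* at 4.85.

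A KRAB pattern was found in the translated coding sequence of 118 members, of which 84 were higher and 4 lower with a median log2 fold change of 0.30. Of the 102 without one, 60 were higher and 12 lower with a median of 0.21. The 4 KRAB genes that were lower were *ZNF789*, *ZNF551*, *ZNF443* and *ZNF468*. A SCAN pattern was found in 14 members, of which 11 were higher and none lower, with a median of 0.20. The 11 include *ZNF24*, for which no direction can be given. The patterns were not checked against a domain annotation. A gene without a match may carry the domain, and a gene with a match may lack it. The number of fingers ran from 0 to 36 with a median of 10. Of the 42 members with at most 4 fingers, 24 were higher and 7 lower (median 0.15), and of the 63 with 5 to 9 fingers, 37 were higher and 5 lower (median 0.26). Of the 74 with 10 to 14 fingers, 55 were higher and 2 lower (median 0.32), and of the 41 with 15 or more, 28 were higher and 2 lower (median 0.25). These differences between kinds of member were not tested, and Spearman's rho between log2 fold change and finger number was 0.10.

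Members on chromosome 19 were mostly higher with PP, while the other genes of that chromosome were more often lower by count. Of the 92 members there, 64 were higher and 7 lower, with a median log2 fold change of 0.32. Of the 527 other genes of chromosome 19 at 5 FPKM or more, 139 were higher and 257 lower, with a median of -0.11. The 128 members on other chromosomes had 80 higher and 9 lower, with a median of 0.22. The other genes of chromosome 19 had a median transcript GC content of 61.2% and the members there 43.1%, and the part of this in the difference was not tested.

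In clusters of members too, more were higher than lower. With members less than 500 kb apart joined, 14 clusters held at least 4 members each and 109 members together, 9 of them on chromosome 19. In all 14 the median was above 0 and more members were higher than lower, and 5 held a member that was lower. Over all genes tested 38.1% were higher and 34.4% lower. In the largest, on chromosome 19 from 57831840 to 58992597, 16 of 23 members were higher and 1 lower, with a median of 0.34. In the cluster from 36705504 to 38210662, 13 of 16 were higher and none lower, with a median of 0.42, among them *ZNF569* (0.75) and *ZNF585A* (0.61). Of that cluster, *ZNF829*, *ZNF382*, *ZNF461* and *ZNF420* reached the level of 5 FPKM only through PP. Their PBS means were 4.91, 4.66, 4.69 and 4.21 FPKM, and by the rule such a gene has a higher mean with PP. Outside chromosome 19, all 5 members of a cluster on chromosome 16 (*ZNF205*, *ZNF213*, *ZNF263*, *ZNF75A* and *ZNF174*, 0.21 to 0.93) and all 5 of a cluster on chromosome 8 (*ZNF251*, *ZNF34*, *ZNF7*, *ZNF250* and *ZNF16*, 0.36 to 0.77) were higher. Members of a cluster have similar sequences, and where the counting divided reads between copies their values are uncertain.

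Some neighbours went opposite ways. *ZNF580* had 23.8, 22.4 and 23.7 FPKM with PBS and 18.2, 19.9 and 21.3 FPKM with PP (log2 fold change -0.22), and *ZNF581* had 7.22, 6.78 and 7.17 FPKM with PBS and 11.8, 11.3 and 11.0 FPKM with PP (0.62). These 2 genes overlap on the same strand, so their reads could be shared out wrongly, and the call of *ZNF580* was lost with GC content and length corrected. *ZNF844* was at 0.62 and *ZNF443*, in the same cluster with 348140 bases between them, at -0.22. *ZNF844* reached the level of 5 FPKM only through PP, and by the rule such a gene has a higher mean with PP. *ZNF844* and *ZNF443* each overlap other annotated protein-coding genes on the same strand, so their reads could also be shared out wrongly. *ZNF211* was at 0.52 and *ZNF551*, with 37.9 kb between them, at -0.22. *ZNF551* overlaps such a gene too.

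**Figure D3:**
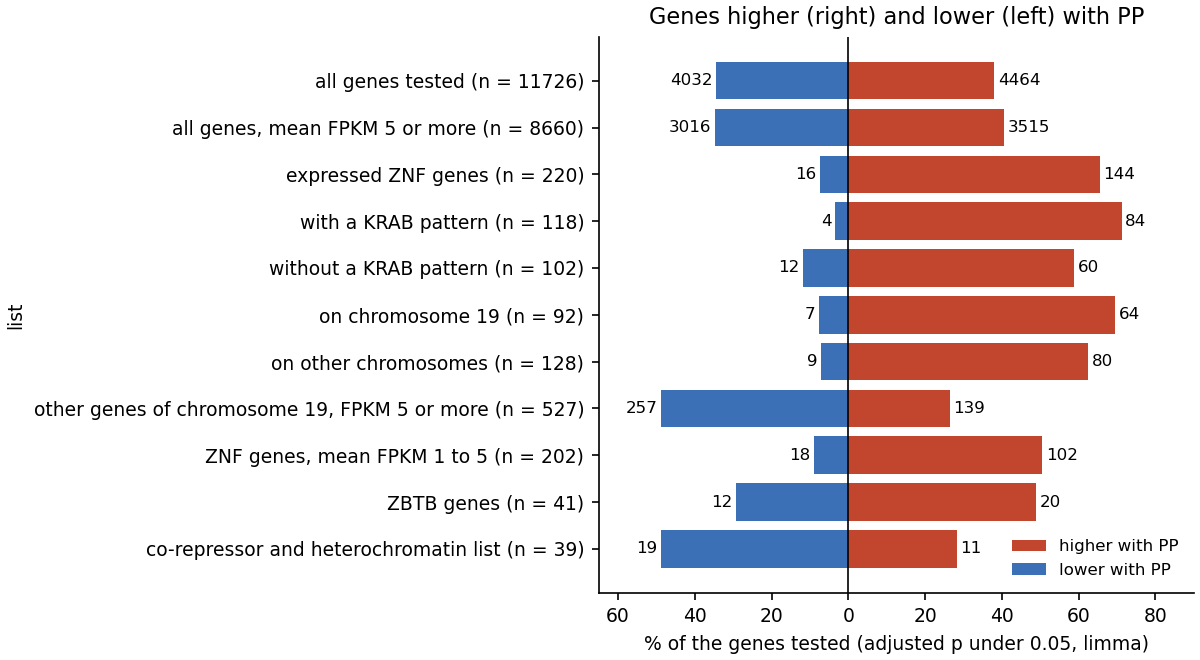
Percentage of genes higher (red, right) and lower (blue, left) with PP at an adjusted p under 0.05 from limma, for all genes, the expressed *ZNF* genes, their divisions and related lists, with the number of genes at each bar. The expressed *ZNF* genes have 144 higher against 16 lower, and the co-repressor list 11 against 19.

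A list of members with a known role, written from general knowledge, held 41, among them KRAB genes such as *ZNF91* and *ZNF274*. Of the 41, 24 were higher (58.5%, against 65.5% of all members and 38.1% of all genes tested). Lower were 2 (4.88%, against 7.27% and 34.4%), and the median was 0.16. Several act on the ribosome. *ZNF593*, related to a yeast export factor of the large ribosomal subunit, had 22.1, 28.5 and 25.9 FPKM with PBS and 42.3, 46.4 and 44.8 FPKM with PP, a log2 fold change of 0.79. *ZNF622*, which acts in maturation of the large subunit, had 13.3, 15.8 and 12.9 FPKM with PBS and 20.1, 22.4 and 22.0 FPKM with PP, at 0.59. *ZNF598*, the ubiquitin ligase that marks collided ribosomes, had 19.8, 19.2 and 18.4 FPKM with PBS and 29.1, 27.0 and 28.0 FPKM with PP, at 0.53. *ZNF330*, a nucleolar protein, was at 0.82. In these genes the groups did not overlap.

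Other members of the role list act in the nucleus. *ZNF644*, which recruits the histone methyltransferases EHMT1 and EHMT2, had 13.96, 13.9 and 13.5 FPKM with PBS and 21.8, 22.7 and 23.5 FPKM with PP, a log2 fold change of 0.68 (standard error 0.04, adjusted p = 3.24e-07 from limma). *ZNF274*, the KRAB protein that binds the 3′ ends of *ZNF* genes and brings SETDB1 there, had 21.5, 22.9 and 23.4 FPKM with PBS and 32.2, 31.7 and 31.4 FPKM with PP, at 0.47 (standard error 0.04, adjusted p = 3.13e-06 from limma). *ZNF410*, an activator of *CHD4*, had 25.3, 26.6 and 25.5 FPKM with PBS and 38.4, 39.5 and 39.2 FPKM with PP, at 0.58, whereas *CHD4* itself fell by 0.23. *ZNF451*, a SUMO ligase, was at 0.48, *ZNF131*, a BTB zinc finger factor, at 0.71, and *ZNF292* at 0.55. The calls of these 6 genes held under every alternative tried. Of the 41 members on the role list, 15 did not pass the test. Among them were *ZNF326* (0.09), *ZNF384* (0.09), *ZNF318* (0.09), *ZNF335* (0.03), *ZNF609* (-0.01) and *ZNF362* (-0.02). *ZNF687* (0.02) and *ZNF281* (-0.05) did not pass the test, but with GC content and length corrected *ZNF687* was called higher (0.16) and *ZNF281* lower (-0.18). In the main comparison *ZNF592*, found with ZNF687 in 1 complex, was at 0.25.

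Of the members known from silencing of transposable elements and foreign DNA, 4 are given here, and they were picked from the role list after their values were seen. *ZNF91*, which represses SVA elements, had 8.91, 8.80 and 9.54 FPKM with PBS and 8.68, 10.1 and 9.98 FPKM with PP, a log2 fold change of 0.07 that did not pass the test and was -0.11 with GC content and length corrected. *ZNF93*, which represses LINE-1, was at 0.15, and its call was lost without PBS replicate 3 (0.13) or PP replicate 3 (0.12) and with GC content and length corrected (0.01). *ZNF10*, whose KRAB domain is the one used in many artificial repressors, was at 0.04 and did not pass the test, and was at -0.13 with the same correction. *ZNF638*, a partner of the HUSH silencing complex, has no KRAB pattern. It was at 0.00 and did not pass the test, but with the same correction it was called lower at -0.14. The 2 members of the role list called lower were *ZNF207*, a spindle protein, at -0.16, and *ZNF385A*, a partner of p53, at -0.30. The PP and PBS libraries of *ZNF385A* overlapped, and its adjusted p rose above 0.05 without PBS replicate 2 (-0.26), without PP replicate 1 (-0.24), without PP replicate 3 (-0.24), with GC content and length corrected (-0.17, adjusted p = 0.140) or with every gene above 0 fitted (adjusted p = 0.0672).

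The co-repressors and heterochromatin proteins that KRAB proteins work through went both ways. Of 39 genes of such a list, 11 were higher (28.2%, against 38.1% of all genes tested) and 19 lower (48.7%, against 34.4%), with a median log2 fold change of -0.09. *TRIM28* had 264, 272 and 280 FPKM with PBS and 357, 346 and 320 FPKM with PP, a log2 fold change of 0.32 (standard error 0.04, adjusted p = 5.93e-05 from limma). *SETDB1* was at 0.21, *MORC3* at 0.34 and *TASOR*, of the HUSH complex, at 0.23, all higher. The heterochromatin protein genes *CBX5*, *CBX3* and *CBX1* were lower, at -0.62, -0.36 and -0.31. So were *HDAC1* (-0.54) and *CHD3* (-0.62) of the NuRD complex, *UHRF1* (-0.78) and *SUMO2* (-0.60). Also of NuRD, *CHD4* (-0.23), *MBD3* (-0.54), *RBBP4* (-0.26) and *RBBP7* (-0.33) were lower. *MTA1* of that complex was higher (0.15), and *HDAC2* (0.05) and *MTA2* (0.00) did not pass the test. Among other zinc finger families, 12 of 19 *KLF* and *SP* genes, 20 of 41 *ZBTB* genes, 8 of 16 *ZSCAN* genes and 8 of 15 *ZFP* genes were higher, and 3, 12, 0 and 1 were lower. The 202 *ZNF* genes between 1 and 5 FPKM had 102 higher and 18 lower, with a median of 0.17.

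GC content moved with the fold change over all genes, so the members were set beside other genes of like GC content. Members had a median transcript GC content of 44.8%, against 48.5% over all genes tested. Below 40% GC the median log2 fold change was 0.31 for the members and 0.19 for other genes at 5 FPKM or more. From 40% to 45% GC it was 0.35 and 0.14, from 45% to 55% it was 0.26 and 0.00, and above 55% it was 0.11 and -0.13. The members' median was the higher in each band, and the difference was not tested. Spearman's rho between log2 fold change and GC content was -0.14 over the 220 members and -0.29 over 8383 other genes. With the trend with GC content and length removed, 135 of the 220 members were higher and 18 lower. Over the 11631 genes of that fit, 37.1% were higher and 34.4% lower.

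A promoter of 300 bases (250 before and 50 after the start) was found in RefSeq for 186 of the 220 members. The ETS core CCGGAAG was in 46.2% of them, against 20.3% of 9557 tested genes and 10.3% of all 35116 promoters. By direction, it was in 47.9% of the 121 members that were higher and in 3 of the 14 that were lower. Members with it had a median log2 fold change of 0.30 (58 of 86 higher) and members without it 0.20 (63 of 100 higher). CCAAT was in 48.4% of members and 37.2% of tested genes, but members with it had a lower median, 0.21, than members without it, 0.30. GGGCGG was in 67.2% of members and 71.8% of tested genes, and TGATGCAA in no member window and 0.471% of tested genes. None of these differences was tested, and a match is not a bound site.

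The cells were checked against their label. *SYP* and *CHGA*, markers of the neuroendocrine state, were expressed in all 6 libraries, at 24.7 to 32.4 and 23.5 to 44.1 FPKM. Of 7 markers of stromal, endothelial and immune cells, *PTPRC*, *PECAM1* and *DCN* were below 0.09 FPKM, *COL1A2*, *VWF* and *CD68* were at 0.259 to 1.53 FPKM, and *COL1A1* was at 3.20 to 4.29 FPKM and higher with PP (log2 fold change 0.26). The 7 summed to 6.32 to 6.39 FPKM with PBS and 6.14 to 6.54 FPKM with PP, and their part in the results was not tested. The recovered depth was 29064253 to 32481171 counts per library, and every member had at least 257 counts in each library. Libraries of the same treatment differed by a chi-square of 3.37 to 7.07 per degree of freedom, and libraries of different treatments by 149 to 170. In RNA from whole cultures, fewer cells of a kind and less RNA per cell cannot be told apart.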

How the data were processed

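RNA-seq was analysed in 6 libraries of NCI-H660 cells. The authors deposited FPKM values by gene symbol. The submitters' processing notes name fastp, HISAT2, HTSeq and GRCh38, whereas the methods name Bowtie and hg19 with RSEM, Cufflinks and HTSeq, and 2 samples per group where the labels have 3. Every value was a whole multiple of a step per gene (100% of 17177 genes, tolerance 0.01 of a count), from which counts were recovered.

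Genes with a mean of at least 1 FPKM were fitted on log2(FPKM + 1), PP minus PBS, with limma 3.58.1 in R 4.3.3 (lmFit, eBayes with a trend, two-sided), and P was adjusted by Benjamini-Hochberg. The scale understates changes of low genes. Places, GC content and length come from GENCODE on GRCh37, which may not be the build of the files, and cover 99.2% of the genes tested. KRAB, SCAN and finger patterns were searched in its translated coding sequences, a source chosen after the files were seen. Python 3.11.15 with pandas 2.3.3 was used, and the steps were tested on simulated data.

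Members and lists were chosen with earlier results of these data known. Genes named are the 12 called members at each end without overlap, the 8 most abundant, the 3 on each side of the threshold, those on the role and co-repressor lists, and opposite neighbours, of which the text leaves some out. Genes near *ZNF77* and in clusters and the promoter counts were chosen after values were seen. Alternatives varied the pseudocount, filter, scaling, trend, level, replicate block, libraries, GC content and unit. Some marker genes are not reported here.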

Additional observations from a re-analysis of the deposited data

How the results depend on the processing

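The members' counts of 144 higher and 16 lower stayed within 1.5 times under every fit tried, and both changed beyond that only with the level that defines a member. At a level of 2 FPKM, 224 of 371 genes were higher, 30 lower and 5 higher past the cutoff (median 0.22), and at 10 FPKM, 72 of 106 were higher and 8 lower, since each holds another number of genes. Over all genes tested in that fit, 38.1% were higher and 34.4% lower. With GC content and length corrected, 5 members were higher and 0 lower past the cutoff, where *ZNF213* (1.09), *ZNF777* (1.02) and *ZNF593* (1.06) joined and *ZNF511* (-0.92) left, and the median was 0.21. The median was 0.28 with limma-voom on recovered counts, 0.25 with median-ratio scaling, 0.28 with a pseudocount of 0.1 and 0.25 at a level of 5 FPKM in each treatment. Leaving out each library in turn gave 135 to 141 higher, 13 to 17 lower, 2 higher and 1 lower past the cutoff and medians of 0.26 to 0.27. In those fits 35.4% to 36.4% of all genes tested were higher and 32.0% to 33.6% lower.

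Of 71 named genes, 49 stayed on the same side of the threshold, called or not, under all 14 alternatives, and 9 lost a call under at least 1 without changing sign. Under the correction *ZNF358* (0.0043), *ZNF146* (-0.019), *ZNF24* (-0.074) and *ZNF638* (-0.14) changed sign and were called in at least 1 of the 2 fits. *ZNF91* (-0.11), *ZNF10* (-0.13), *ZNF326* (-0.04), *ZNF609* (0.09) and *ZNF362* (0.08) changed sign without a call in either, and the cause was not tested. Same-numbered libraries did not deviate together (correlations of -0.21, -0.01 and -0.13), so no shared effect of the numbers was seen. Whether same-numbered libraries came from 1 culture or batch is not known. The fit with a replicate block gave 137 members higher and 14 lower, against 36.3% and 33.1% of all genes tested.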
